A study of Homo sapiens with 12 samples.

Results

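Levels of 8 transcription factors that mark the lineage and subtype of pancreatic carcinoma were compared between cell populations, radiation doses and times in PANC-1, a cell line from a human pancreatic ductal carcinoma. The 8 genes, GATA6, HNF4A, FOXA1, FOXA2, PDX1, SOX9, KLF5 and ELF3, were chosen by their symbols among the 23284 genes listed, and all 8 were found. PANC-1 cells carried a retroviral reporter, ZsGreen fused to a degron of ornithine decarboxylase, under G418 selection in both populations. The proteasome removes this protein, so that cells with low proteasome activity fluoresce. Degron (++) cells were the brightest fraction of a repeatedly sorted ZsGreen-positive culture. Degron (−) cells were the infected line, in which few cells fluoresced. RNA was sequenced from each population at 0 Gy (48 h), at 4 Gy (30 h) and at 4 Gy (48 h), with 2 libraries in each of the 6 groups. From which event the hours run is not given in the labels. Nor do they say that the 2 libraries of a group came from separate cultures, so p-values measure only the spread between these libraries, which may be technical. The 6 degron (−) libraries are labelled ZsGreen-negative in their titles but d+ in their descriptions.

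In the embryo, FOXA factors open chromatin for the endodermal programme, PDX1 commits cells to the pancreas, and SOX9 maintains progenitors and later duct cells. GATA6 and HNF4A sustain the classical subtype of pancreatic carcinoma, and their loss accompanies the basal-like subtype. KLF5 and ELF3 are epithelial factors of duct cells and of well-differentiated carcinoma.

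Levels are given as FPKM, fragments scaled to transcript length and to the number of mapped reads, as deposited. FPKM hold no counts, so the depth behind each value is unknown. FPKM summed to 829654 to 916877 per degron (++) library and to 707273 to 763064 per degron (−) library, of which MIR622 alone made up 28.6% to 30.0% and 22.5% to 27.1%. The closest library of each of the 12, by correlation, came from the same population. The ductal markers KRT8, KRT18, KRT19, KRT7, EPCAM and MUC1 reached 1 FPKM in both populations and CFTR in neither, and the 7 markers summed to 7160 to 8346 in degron (++) and 4234 to 5143 in degron (−). The 11 acinar markers stayed under 1 FPKM in all 12 libraries. Of the endocrine, hepatocyte, fibroblast and leukocyte markers, LUM and CD14 reached 1 FPKM in degron (++), and SYP, ALB, COL1A1, LUM and CD14 did so in degron (−). Of these, COL1A1, a fibroblast collagen, was at 36.5 to 52.3 FPKM in degron (−) and 0.531 to 0.826 FPKM in degron (++), and LUM, also of fibroblasts, at 0.290 to 1.61 and 13.8 to 24.7 FPKM. SYP, of endocrine cells, was at 3.12 to 4.11 FPKM in degron (−) and 0.173 to 0.454 FPKM in degron (++). The part of these markers in the results was not tested. PANC-1 is known for a homozygous deletion of CDKN2A, which encodes cell cycle inhibitors. Here CDKN2A was at 100.4 to 111.9 FPKM in the 6 degron (++) libraries and at 11.04 to 21.1 FPKM in the 6 degron (−) libraries, which goes against the label in both. CDKN2A thus moved with the population, and its part in the differences between the populations was not tested.

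The populations differed in which factors were expressed. ELF3, KLF5, FOXA1 and GATA6 were higher in degron (++) in all 3 conditions, and FOXA2, PDX1 and SOX9 were higher in degron (−) in all 3 conditions. HNF4A was under 1 FPKM in every library. On the log2(FPKM + 1) scale used for the tests, the largest differences were those of FOXA2, at 34.5 to 44.6 times the degron (++) mean in degron (−), and of ELF3, at 8.09 to 19.1 times the degron (−) mean in degron (++). Differences were tested on log2(FPKM + 1) with limma in a fit of all 12 libraries, with Benjamini-Hochberg adjustment over the 12946 genes with at least 1 FPKM in at least 2 libraries and 0.05 as the threshold for the adjusted p. On this scale the change of genes with low FPKM is understated. Of the 8 factors, 7 passed the filter and all 7 passed the threshold at 0 Gy (48 h), at 4 Gy (30 h) and at 4 Gy (48 h), 4 of them higher and 3 lower in degron (++). Of all genes tested, 77.7%, 79.1% and 76.7% passed in these conditions and 71.3% had no overlap between the 6 libraries of each population, so the count of 7 is read against a background of most genes. Higher and lower calls were 37.6% and 40.2% of all genes at 0 Gy (48 h), 38.3% and 40.8% at 4 Gy (30 h), and 37.1% and 39.6% at 4 Gy (48 h), and genes without overlap were 34.1% higher and 37.2% lower. FOXA1, FOXA2 and PDX1 passed the filter only through the population in which they were high. In bulk RNA, fewer cells that express a gene and less RNA per cell cannot be told apart.

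**Figure D1:**
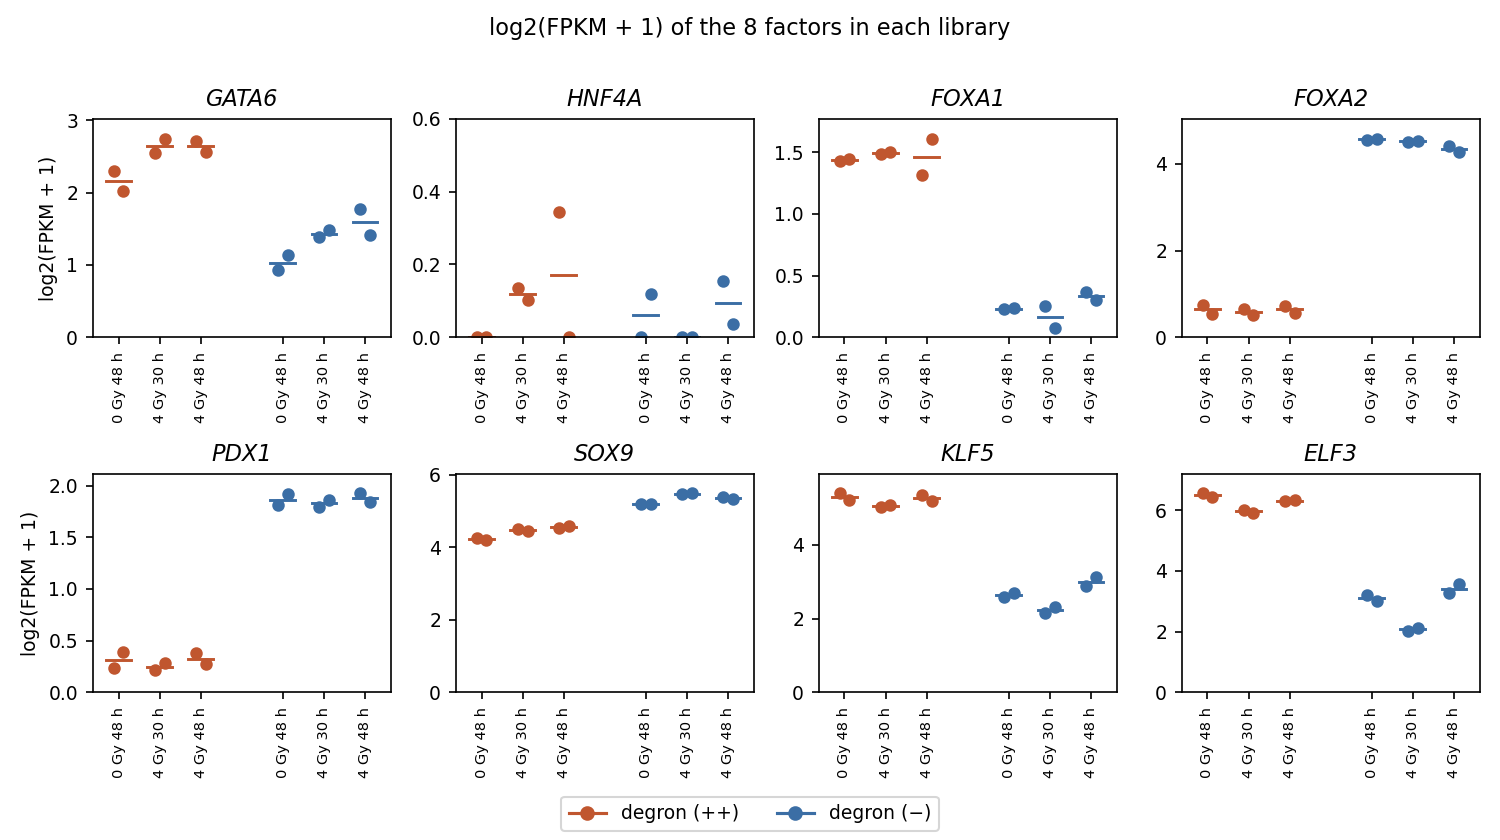
Level of each of the 8 factors as log2(FPKM + 1), with 1 point per library (2 per group), a line at the mean of each group and a separate vertical scale, from 0, for each gene. The degron (++) and degron (−) libraries are apart for 7 factors, and HNF4A lies near 0 in both populations.

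ELF3, an ETS factor of epithelial differentiation, was the most abundant of the 8 factors in degron (++). It was at 93.1 and 86.3 FPKM at 0 Gy (48 h), at 63.3 and 59.6 FPKM at 4 Gy (30 h), and at 77.9 and 80.3 FPKM at 4 Gy (48 h) in degron (++). In degron (−) it was at 8.14 and 7.01 FPKM, at 3.05 and 3.39 FPKM, and at 8.60 and 10.9 FPKM in the same order. The lowest degron (++) library was thus far above the highest degron (−) library, and in both populations the 2 libraries at 30 h were the lowest. The difference between the populations was 3.41, 3.89 and 2.90 on the log2 scale, with an average over the conditions of 3.40 (SE 0.0599, limma adjusted p = 6.29e-11). It ranked 27 from the top among the averages of the 12946 genes tested.

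KLF5, a zinc finger factor that maintains epithelial proliferation, followed ELF3 in level and in size of difference. It was at 41.0 and 36.4 FPKM at 0 Gy (48 h), at 31.7 and 32.8 FPKM at 4 Gy (30 h), and at 40.0 and 35.5 FPKM at 4 Gy (48 h) in degron (++). The degron (−) values were 5.03 and 5.49 FPKM, 3.47 and 3.97 FPKM, and 6.33 and 7.68 FPKM. The populations did not overlap, and the 30 h libraries were again the lowest of each. Its difference was 2.66, 2.82 and 2.28 on the log2 scale, with an average of 2.59 (SE 0.0578, limma adjusted p = 2.52e-10).

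FOXA1, a pioneer factor that opens closed chromatin, was expressed at a low level. It ranged from 1.49 to 2.06 FPKM (median 1.76) in the 6 degron (++) libraries and from 0.0570 to 0.294 FPKM (median 0.184) in the 6 degron (−) libraries. Each degron (−) library lay under 1 FPKM. The average difference was 1.22 on the log2 scale (SE 0.0618, limma adjusted p = 5.97e-08), and the ratio of the mean FPKM was 9.84, 14.7 and 6.68 in the 3 conditions.

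GATA6, a zinc finger factor whose level separates the classical from the basal-like subtype, was also higher in degron (++). It was at 3.901 and 3.07 FPKM at 0 Gy (48 h), at 4.87 and 5.71 FPKM at 4 Gy (30 h), and at 5.57 and 4.89 FPKM at 4 Gy (48 h) in degron (++). In degron (−) it was at 0.901 and 1.20 FPKM, at 1.61 and 1.80 FPKM, and at 2.42 and 1.65 FPKM. The 2 unirradiated libraries were the lowest of each population. GATA6 had the largest SE of the 7 factors, with an average difference of 1.13 (SE 0.0848, limma adjusted p = 1.06e-06) and a ratio of mean FPKM of 3.33, 3.11 and 2.57.

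The promoters of these 4 factors are shown because they were the members higher in degron (++). RefSeq promoters on GRCh38.p14 were found for 5 of the 8 factors, GATA6, HNF4A, FOXA1, KLF5 and ELF3. Each window holds the 250 bases before a start of transcription, 5′ to 3′ along the gene. Capitals mark matches on either strand. The letters searched were TGTTTAC for forkhead factors such as FOXA1. For GATA factors they were AGATAA. Those of KLF factors were CCACCC. Those of the GC box were GGGCGG. ETS factors, to which ELF3 belongs, were given CCGGAA. For SOX factors ACAATG was used. The core promoter boxes were CCAAT, for the box of that name, and TATAAA for the TATA box. No matches in the printed windows overlap.
ELF3, chr1:202010337-202010586, plus strand: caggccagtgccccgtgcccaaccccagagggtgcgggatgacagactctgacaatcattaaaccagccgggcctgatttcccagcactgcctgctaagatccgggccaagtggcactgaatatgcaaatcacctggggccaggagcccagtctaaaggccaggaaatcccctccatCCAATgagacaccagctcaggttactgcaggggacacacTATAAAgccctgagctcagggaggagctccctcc
KLF5, upstream start, chr13:73054726-73054975, plus strand: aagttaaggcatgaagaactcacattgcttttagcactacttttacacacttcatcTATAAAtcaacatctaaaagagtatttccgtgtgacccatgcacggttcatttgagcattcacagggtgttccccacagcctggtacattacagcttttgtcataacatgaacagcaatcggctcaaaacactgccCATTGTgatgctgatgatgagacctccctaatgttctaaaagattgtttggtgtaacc
KLF5, downstream start, chr13:73058755-73059004, plus strand: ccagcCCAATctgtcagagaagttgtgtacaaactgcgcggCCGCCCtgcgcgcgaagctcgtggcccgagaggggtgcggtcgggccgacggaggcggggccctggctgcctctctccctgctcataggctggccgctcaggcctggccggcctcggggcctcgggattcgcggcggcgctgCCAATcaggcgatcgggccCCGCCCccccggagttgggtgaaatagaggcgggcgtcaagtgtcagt
FOXA1, chr14:37595250-37595499, minus strand: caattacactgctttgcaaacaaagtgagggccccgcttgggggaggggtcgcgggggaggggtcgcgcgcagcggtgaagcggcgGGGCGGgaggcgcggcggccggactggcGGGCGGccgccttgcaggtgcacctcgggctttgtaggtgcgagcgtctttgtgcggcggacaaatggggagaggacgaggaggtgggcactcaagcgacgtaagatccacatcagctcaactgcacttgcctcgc
GATA6, chr18:22169339-22169588, plus strand: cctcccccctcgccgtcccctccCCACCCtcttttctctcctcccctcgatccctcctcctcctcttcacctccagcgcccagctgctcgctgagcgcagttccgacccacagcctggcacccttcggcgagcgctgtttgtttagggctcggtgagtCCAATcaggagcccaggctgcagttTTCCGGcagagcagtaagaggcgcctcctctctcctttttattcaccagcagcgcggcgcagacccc
The windows differed in base composition. FOXA1 held 26 CpG and the downstream start of KLF5 held 27, against 16 for GATA6, 4 for ELF3, 3 for the upstream start of KLF5 and a median of 11 over 35116 windows. ELF3, the factor with the largest difference of the 4, had a TATA box that began at -34 and a CCAAT box that began at -73 from its start. TATAAA was found in 10.7% of all windows. CCAAT was found in 32.0% of them. The FOXA1 window had GC boxes at -164 and -136 (in 42.6% of windows). The GATA6 window had a KLF match at -227 (in 31.3% of windows), a CCAAT box at -92 and an ETS match on the minus strand at -67 (in 14.5% of windows). The forkhead and GATA letters, in 2.98% and 9.17% of all windows, had no match in these 5 windows, and the single SOX match (in 9.29% of windows) was at -58 on the minus strand of the upstream KLF5 window. These matches are descriptions of the letters only.

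FOXA2, the close relative of FOXA1 that specifies endoderm and its derivatives, had the opposite pattern to FOXA1. In degron (−) it was at 22.5 and 23.0 FPKM at 0 Gy (48 h), at 21.9 and 22.2 FPKM at 4 Gy (30 h), and at 20.5 and 18.5 FPKM at 4 Gy (48 h). It ranged from 0.420 to 0.689 FPKM (median 0.528) in the 6 degron (++) libraries. No degron (++) library reached 1 FPKM and no degron (−) library was under 18.5 FPKM. The difference was -3.92, -3.95 and -3.71 on the log2 scale, with an average of -3.86 (SE 0.0540, limma adjusted p = 1.57e-11). It ranked 116 from the bottom among the averages of the 12946 genes tested.

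PDX1, the homeobox factor of pancreatic progenitors and beta cells, was near the lower limit of the filter. It ranged from 0.163 to 0.313 FPKM (median 0.212) in degron (++) and from 2.47 to 2.79 FPKM (median 2.61) in degron (−). The populations did not overlap, and the range within degron (−) was narrow. The average difference was -1.56 (SE 0.0508, limma adjusted p = 2.69e-09), and the degron (−) mean was 10.8, 13.6 and 10.6 times the degron (++) mean.

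SOX9, a factor of duct cells, was abundant in both populations and had the smallest difference of the 7. It was at 18.2 and 17.4 FPKM at 0 Gy (48 h), at 21.9 and 21.1 FPKM at 4 Gy (30 h), and at 21.97 and 22.9 FPKM at 4 Gy (48 h) in degron (++). The degron (−) values were 35.6 and 35.9 FPKM, 43.8 and 43.9 FPKM, and 40.9 and 39.2 FPKM. Replicates lay close together, the populations did not overlap, and the unirradiated libraries were the lowest of each. The difference was -0.97, -0.996 and -0.81, with an average of -0.92 (SE 0.0234, limma adjusted p = 5.39e-10), and the degron (−) mean was 2.01, 2.04 and 1.79 times that of degron (++).

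HNF4A, a nuclear receptor that drives hepatocyte and intestinal genes and the classical subtype, was listed at 0 in 3 of 6 libraries of each population. The other degron (++) libraries were at 0.0980, 0.0740 and 0.270 FPKM, and the other degron (−) libraries at 0.0870, 0.114 and 0.0250 FPKM. The populations overlapped. Without a filter the average difference was 0.05 on the log2 scale (SE 0.0571, limma adjusted p = 0.505), a scale on which values this low can hardly differ. Of 13 liver and gut genes that HNF4A is known to activate, 1 passed the filter, SERPINA1, a protease inhibitor. It was at 3.97 ± 0.633 FPKM in degron (++) and 1.42 ± 0.490 FPKM in degron (−) (mean ± SD, n = 6). Here and below, n = 6 pools the 3 conditions with 2 libraries each, so the SD includes differences between conditions. APOA1, APOB, TTR and FABP1 were among the 12 that did not pass.

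**Figure D2:**
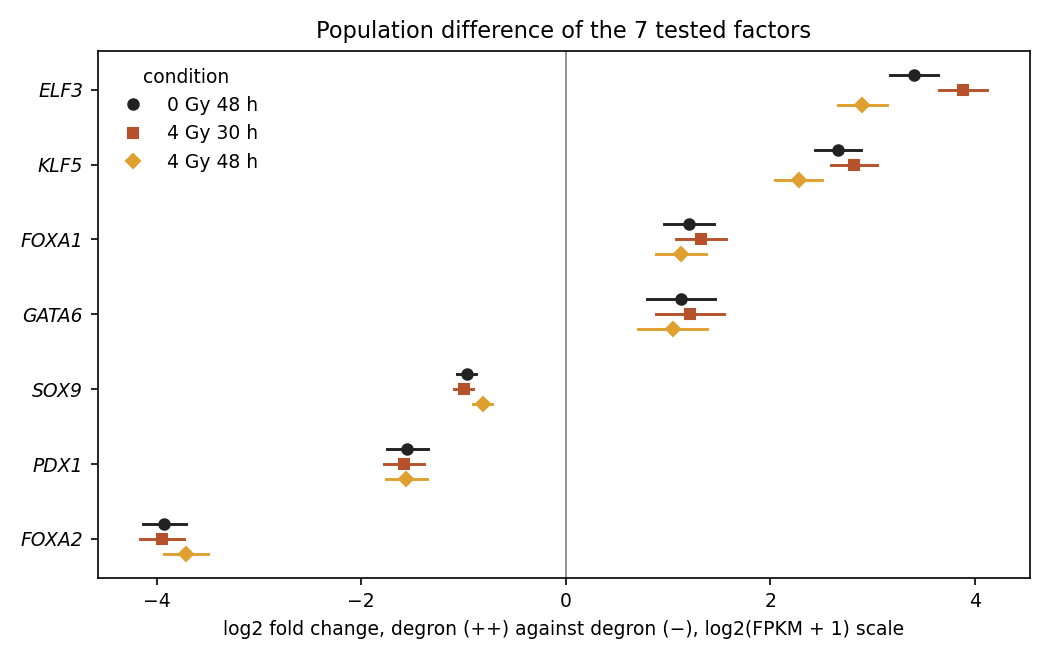
Log2 fold change of degron (++) against degron (−) on the log2(FPKM + 1) scale for the 7 tested factors, with a point and a 95% confidence interval from limma for each of the 3 conditions. ELF3 and KLF5 vary most between conditions, from 2.90 to 3.89 and from 2.28 to 2.82, and the direction is the same in each condition for all 7.

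The order of the levels also differed between the populations. In all 6 degron (++) libraries it was ELF3, KLF5, SOX9, GATA6, FOXA1, FOXA2, PDX1 and HNF4A from high to low. In degron (−) it was SOX9, FOXA2, ELF3, KLF5, PDX1, GATA6, FOXA1 and HNF4A in the 4 libraries at 48 h, and KLF5 lay above ELF3 in the 2 libraries at 30 h. In degron (−), the ranges of neighbours in this order overlapped for ELF3 and KLF5, at 3.05 to 10.9 and 3.47 to 7.68 FPKM, and for FOXA1 and HNF4A, at 0.0570 to 0.294 and 0 to 0.114 FPKM. The ranges of PDX1, at 2.47 to 2.79, and GATA6, at 0.901 to 2.42 FPKM, lay side by side. In degron (++), the ranges of neighbours overlapped for PDX1 and HNF4A, at 0.163 to 0.313 and 0 to 0.270 FPKM, and for no other pair.

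Irradiation was tested at 48 h, at 4 Gy against 0 Gy, within each population. In degron (++), SOX9 rose from 18.2 and 17.4 FPKM to 21.97 and 22.9 FPKM, by 0.32 on the log2 scale (SE 0.0406, limma adjusted p = 0.0140). It was the only 1 of the 7 factors past the threshold, where 1.82% of all genes tested passed and 1.42% rose. The call was lost when each of the 4 libraries compared was left out in turn (0 Gy (48 h) replicates 1 and 2, adjusted p = 0.0807 and 0.0685, and 4 Gy (48 h) replicates 1 and 2, adjusted p = 0.0531 and 0.0831). It was also lost after rescaling to TPM (adjusted p = 0.128), after rescaling without MIR622 (adjusted p = 0.0837) and in a fit of the compared libraries alone (adjusted p = 0.253). GATA6 differed by 0.48 (95% confidence interval 0.14 to 0.81, adjusted p = 0.143). The intervals of FOXA1 (-0.22 to 0.27), FOXA2 (-0.21 to 0.21), PDX1 (-0.19 to 0.21), KLF5 (-0.26 to 0.19) and ELF3 (-0.41 to 0.06) included 0.

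In degron (−), none of the 7 factors passed the threshold by limma at 4 Gy against 0 Gy, where 4.73% of all genes did, while 5 of the 7 had an unadjusted p under 0.05, against 20.9% of all genes. GATA6 went from 0.901 and 1.20 FPKM to 2.42 and 1.65 FPKM, a difference of 0.56 (95% confidence interval 0.23 to 0.89, limma adjusted p = 0.0686). With a pseudocount of 0.1 this difference passed (0.88, adjusted p = 0.0498). The other 4 were SOX9 at 0.16 (adjusted p = 0.0613), KLF5 at 0.35 (adjusted p = 0.0884), ELF3 at 0.32 (adjusted p = 0.120) and FOXA2 at -0.21 (adjusted p = 0.237). ELF3 passed without degron (−) 4 Gy (48 h) replicate 1, at 0.48 (adjusted p = 0.0388).

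The response to dose was then compared between the populations. No factor passed for this interaction, in which 0.0772% of all genes tested by limma passed, and 3 of the 7 had an unadjusted p under 0.05, against 13.6% of all genes. ELF3 had a dose difference in degron (++) less that in degron (−) of -0.50 (95% confidence interval -0.84 to -0.17, adjusted p = 0.194), KLF5 of -0.39 (-0.71 to -0.06, adjusted p = 0.295) and SOX9 of 0.16 (0.03 to 0.29, adjusted p = 0.285). For GATA6 the interval was -0.56 to 0.39. The SOX9 call in degron (++) is therefore not shown to differ from the value in degron (−).

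Time was compared at 4 Gy, at 48 h against 30 h. There was no unirradiated group at 30 h, so time after irradiation and time alone cannot be told apart. In degron (−), ELF3 rose from 3.05 and 3.39 FPKM at 30 h to 8.60 and 10.9 FPKM at 48 h, by 1.35 on the log2 scale (SE 0.104, limma adjusted p = 0.000350). KLF5 rose from 3.47 and 3.97 FPKM to 6.33 and 7.68 FPKM in the same libraries, by 0.76 (SE 0.1001, limma adjusted p = 0.00311). Neither had overlap between the times, and both passed with each library left out in turn. They were 2 of 7 factors past the threshold, where 7.18% of all genes passed and 6.01% rose. Both calls were lost in a fit of these 4 libraries alone, which has 2 residual degrees of freedom (adjusted p = 0.0792 for ELF3 and 0.0991 for KLF5). SOX9 differed by -0.13 (95% confidence interval -0.22 to -0.03, adjusted p = 0.104). In degron (++), 0 of 7 factors passed by limma, where 1.21% of all genes did. Only ELF3 had an unadjusted p under 0.05 there, as did 15.8% of all genes, with 63.3 and 59.6 FPKM at 30 h and 77.9 and 80.3 FPKM at 48 h, a difference of 0.36 (SE 0.104, adjusted p = 0.148).

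The time difference of ELF3 was smaller in degron (++) than in degron (−) by 0.99 on the log2 scale (95% confidence interval -1.32 to -0.65 for the interaction, limma adjusted p = 0.0145). It was 1 of 7 factors past the threshold for this interaction, where 3.23% of all genes passed and 2.72% of all genes did so with a negative value. The call was lost without degron (++) 4 Gy (30 h) replicate 1 (adjusted p = 0.0577) or 2 (adjusted p = 0.0549), without degron (++) 4 Gy (48 h) replicate 1 (adjusted p = 0.0561) and without degron (−) 4 Gy (30 h) replicate 1 (adjusted p = 0.0662). KLF5 had an interaction of -0.54 (adjusted p = 0.0882), which passed without degron (−) 4 Gy (48 h) replicate 1 (-0.66, adjusted p = 0.0499). The intervals of GATA6 (-0.64 to 0.30), FOXA1 (-0.54 to 0.14), FOXA2 (-0.06 to 0.54) and PDX1 (-0.26 to 0.31) included 0, and that of SOX9 was 0.06 to 0.32 (adjusted p = 0.134).

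CDKN2A and its neighbours moved with these values. Mean ELF3 in degron (−) was 5.24% of that in degron (++) at 4 Gy (30 h), 8.44% at 0 Gy (48 h) and 12.4% at 4 Gy (48 h). KLF5 was at 11.5%, 13.6% and 18.5% and FOXA1 at 6.82%, 10.2% and 14.96% in the same order. CDKN2A was at 11.5%, 16.2% and 18.5%, CDKN2B, its neighbour and relative, at 9.71%, 12.1% and 16.8%, and MTAP, a neighbour that encodes an enzyme of methionine salvage, at 17.0%, 22.5% and 29.0%. By these means, the 6 genes were lowest at 4 Gy (30 h) and highest at 4 Gy (48 h) relative to degron (++). For FOXA1 the lowest place rested on 1 library near 0. Its degron (−) values were 0.190 and 0.0570 FPKM at 4 Gy (30 h) and 0.170 and 0.177 FPKM at 0 Gy (48 h). How many of all genes had the same order was not counted. GATA6 had another order, at 32.2%, 30.1% and 38.9%, and was lowest at 0 Gy (48 h). CDKN2A, CDKN2B and MTAP were chosen after their values were seen, and the part of this shared order in the time difference of ELF3 and KLF5 was not tested.

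**Figure D3:**
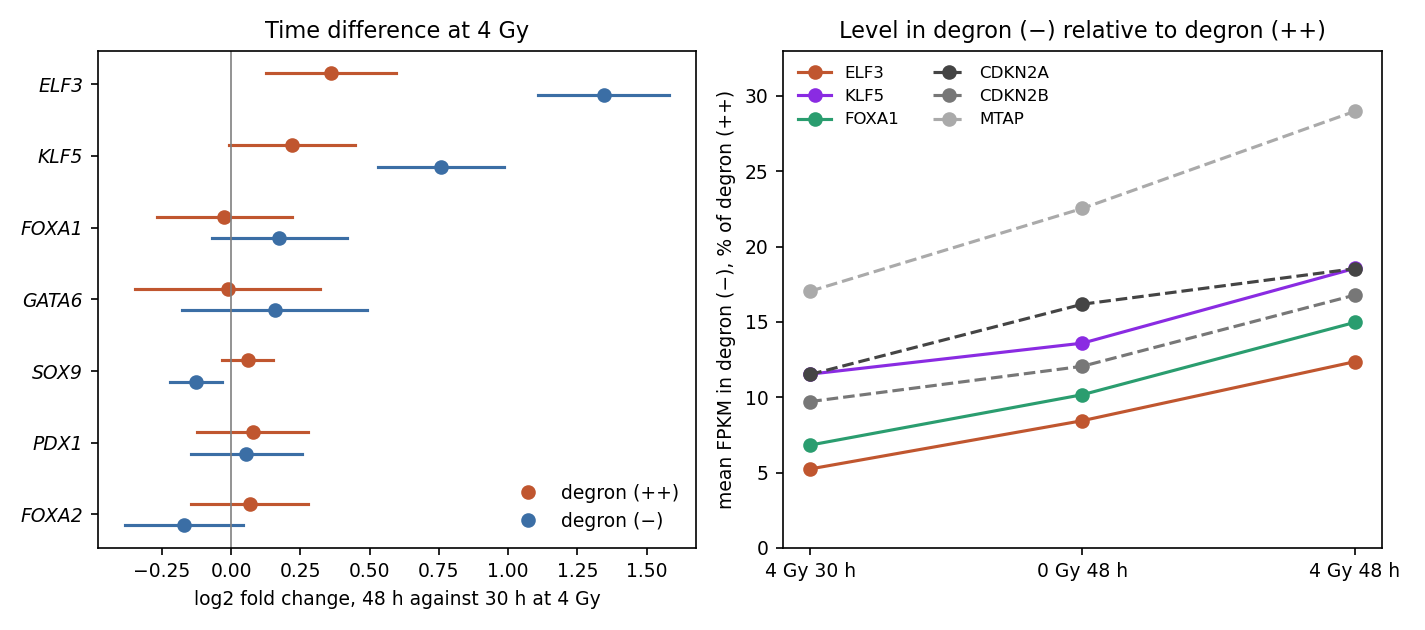
Left, log2 fold change at 48 h against 30 h at 4 Gy for the 7 tested factors on the log2(FPKM + 1) scale, with 95% confidence intervals from limma, by population. Right, mean FPKM in degron (−) (n = 2) as a percentage of that in degron (++) (n = 2) in the 3 conditions, for ELF3, KLF5 and FOXA1 (solid) and CDKN2A, CDKN2B and MTAP (dashed): each is lowest at 4 Gy (30 h) and highest at 4 Gy (48 h), ELF3 with 5.24% and 12.4%.

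Within their families, the factors did not all dominate. Of 6 GATA genes, GATA6 ranked 3 in degron (++) and 5 in degron (−). GATA3, a factor of luminal and squamous epithelia, was the highest in degron (++), at 42.2 ± 2.54 against 12.8 ± 2.68 FPKM in degron (−) (mean ± SD, n = 6, log2 difference 1.66, limma adjusted p = 2.49e-10). GATA2, best known from blood progenitors, was the highest in degron (−), at 31.9 ± 1.53 against 10.5 ± 1.39 FPKM (log2 difference -1.53, limma adjusted p = 4.08e-10). GATA4 was at 11.7 ± 1.03 FPKM in degron (−) and 3.71 ± 0.223 FPKM in degron (++), and GATA5, also an endodermal factor, was at 13.6 to 18.6 FPKM in degron (−) and at 0 to 0.0350 FPKM in degron (++). GATA6 and GATA3 were thus higher in degron (++), and GATA2, GATA4 and GATA5 higher in degron (−), under each scaling tried.

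FOXA1 was the highest of the FOXA and HNF4 genes in degron (++) and FOXA2 in degron (−), and FOXA3, HNF4A and HNF4G averaged under 0.1 FPKM in both. SOX9 ranked 1 of 19 SOX genes in both populations. KLF5 ranked 1 of 17 KLF genes in degron (++), at 36.2 ± 3.72 FPKM, and 6 in degron (−), at 5.33 ± 1.54 FPKM (n = 6). KLF10, KLF6 and KLF16 had higher means than KLF5 over the 12 libraries, and each was higher in degron (−), by 0.69, 0.43 and 0.85 on the log2 scale, so that their direction was opposite to that of KLF5. ELF3 ranked 1 of 6 ELF genes in degron (++), at 76.7 ± 13.0 FPKM. In degron (−) it ranked 3, at 6.85 ± 3.10 FPKM (n = 6 over the 3 conditions). ELF4 was the highest there, at 23.0 ± 1.08 FPKM.

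**Figure D4:**
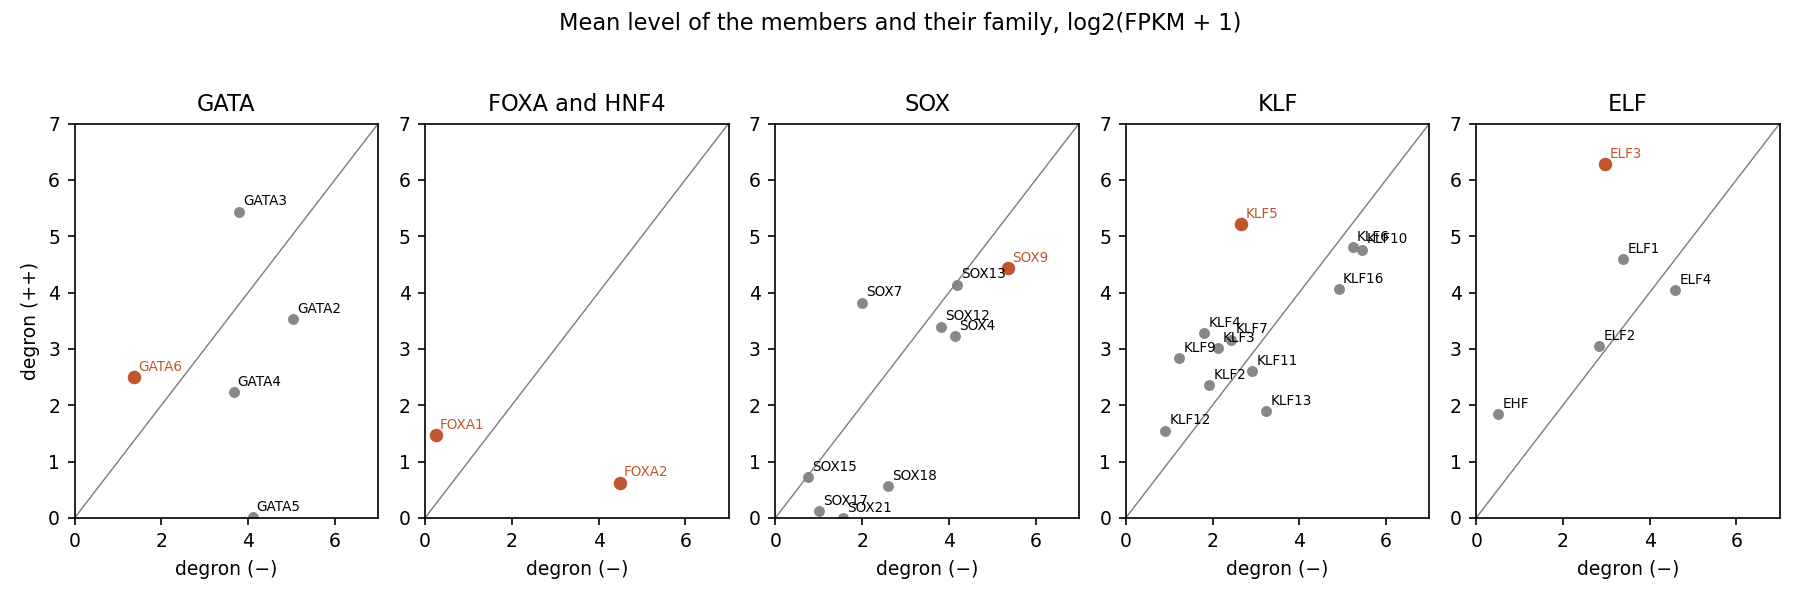
Mean log2-scaled FPKM (log2 of the mean FPKM of 6 libraries + 1) in degron (++) against degron (−) for the genes of 5 transcription factor families with a mean of at least 0.5 FPKM over the 12 libraries. The factors described here are in orange, the grey line marks equal levels, and GATA6, FOXA1, KLF5 and ELF3 lie above it while FOXA2 and SOX9 lie below it.

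Transcripts used to call the subtypes were compared with the factors, as averages over the 3 conditions, where 86.7% of all genes tested passed the threshold, 42.1% higher and 44.6% lower in degron (++), and the median difference of all genes was -0.02. Of 24 classical transcripts, 4 passed the filter, with 3 higher and 1 lower in degron (++) and a median difference of 1.44. TFF1, a secreted trefoil protein of mucous epithelia, was at 8.57 ± 1.35 FPKM in degron (++) and 1.74 ± 1.01 FPKM in degron (−). TFF2, of the same family, was at 4.48 ± 0.765 and 1.504 ± 0.651 FPKM, and SPINK4, whose libraries overlapped between the populations, was the other gene that was higher. AGR2, an endoplasmic reticulum protein needed for mucin folding, was lower by 2.59, at 21.8 ± 3.60 against 136 ± 20.6 FPKM (n = 6). The other 20, among them CEACAM6, LYZ and REG4, did not pass the filter.

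Of 25 basal-like transcripts, 17 passed the filter, with 15 higher and 1 lower in degron (++) and a median difference of 1.87. AREG, SCEL and KRT17 reached 1 FPKM only in degron (++), so the filter itself favoured a difference in these. Of the other 14, 12 were higher and 1 lower, with a median of 2.13. FGFBP1, a carrier of fibroblast growth factors, was at 58.5 ± 11.01 FPKM in degron (++) and 6.61 ± 2.40 FPKM in degron (−), a difference of 3.01. VGLL1, a cofactor of TEAD factors, was at 78.7 ± 7.37 and 10.7 ± 4.43 FPKM. KRT7, a keratin of duct cells, was at 1284 ± 105 and 192 ± 53.6 FPKM, and CST6, a protease inhibitor, was at 239 ± 23.2 and 36.4 ± 12.1 FPKM (n = 6). CTSL2, the 1 that was lower, by 0.11, had a difference of 0.02 under quantile normalization (adjusted p = 0.621), and KRT15, at 0.15, lost its call after rescaling to TPM (-0.08, adjusted p = 0.168). Thus GATA6, the factor of the classical subtype, and most basal-like transcripts measured were both higher in degron (++).

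Of 29 other pancreatic and endodermal factors, 11 passed the filter, with 3 higher and 7 lower in degron (++) and a median difference of -0.53. Of these 11, 6 reached 1 FPKM in only 1 population, PAX6 in degron (++) and SOX17, MNX1, NKX6-1, MAFA and CDX2 in degron (−). The filter itself thus favoured a difference in these 6. Of the other 5, 2 were higher and 3 lower. MAFA, a beta cell factor, was at 0.128 ± 0.0700 FPKM in degron (++) and 4.10 ± 0.560 FPKM in degron (−), and GATA4 was lower by 1.43. CDX2, an intestinal factor, was at 1.80 ± 0.168 FPKM in degron (−) and at 0 to 0.0410 FPKM in degron (++). ISL1, an islet factor, was higher in degron (++), at 4.17 ± 0.433 against 0.808 ± 0.255 FPKM (n = 6). PTF1A was listed at 0 in every library. Of these 11, 0 passed by limma for dose or for time within either population, where 1.82% and 4.73% of all genes passed for dose and 1.21% and 7.18% for time in degron (++) and degron (−), so that a count of 0 among 11 is near the share of all genes. At an unadjusted p under 0.05 there were 1 and 2 for dose and 0 and 3 for time, against 17.6%, 20.9%, 15.8% and 22.3% of all genes.

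Of 14 other epithelial factors, 11 passed the filter, with 7 higher and 4 lower in degron (++) and a median difference of 1.49. EHF reached 1 FPKM only in degron (++) and SPDEF and TFAP2C only in degron (−), so the filter itself favoured a difference in these. Of the other 8, 6 were higher and 2 lower, with a median of 1.75. ZBED2, a repressor of interferon genes in pancreatic carcinoma, was at 14.6 ± 2.07 FPKM in degron (++) and 1.71 ± 0.821 FPKM in degron (−). GRHL2, which maintains epithelial junctions, was at 36.3 ± 1.08 and 5.55 ± 1.70 FPKM. TFAP2C was at 3.92 ± 0.440 FPKM in degron (−) and listed at 0 in the 6 degron (++) libraries (n = 6). GRHL1, among the 4 that were lower, by 0.26, was at 0.02 under quantile normalization (adjusted p = 0.838).

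Several of these genes shared the time difference of ELF3 and KLF5 in degron (−). At 48 h against 30 h in degron (−), 5 of the 11 epithelial factors and 11 of the 17 basal-like transcripts rose, where 7.18% of all genes passed and 6.01% rose. In degron (++), 1 of 11 and 1 of 17 rose, where 1.21% of all genes passed. GRHL2 rose by 0.80 in degron (−) (SE 0.0802, limma adjusted p = 0.000985), and its interaction was -0.72 (adjusted p = 0.0170). OVOL1, a repressor of mesenchymal genes, rose by 0.90 (adjusted p = 0.00241), and its interaction was -0.79 (adjusted p = 0.0356). For the interaction, 3 epithelial factors were lower and 1 higher, and 8 basal-like transcripts were lower and 0 higher, where 3.23% of all genes passed and 2.72% were lower. At an unadjusted p under 0.05 there were 7 of 11 and 10 of 17, against 17.9% of all genes. The list counts for time and its interaction were not repeated under the alternative settings. Over all genes, the count for time in degron (−) ranged over 7 to 1001 under the alternatives that kept all libraries. That for the interaction ranged over 128 to 475.

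**Figure D5:**
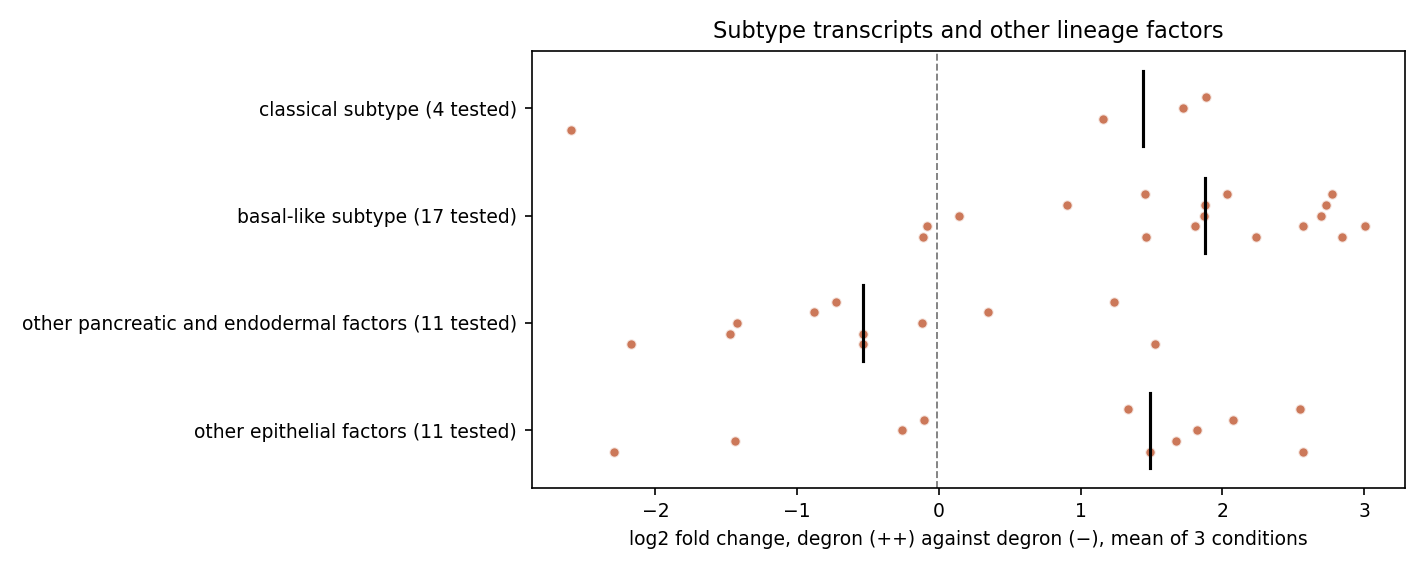
Log2 fold change of degron (++) against degron (−), averaged over the 3 conditions, for the tested genes of 4 lists (1 point per gene, spread vertically only for legibility). Black bars mark the list medians of 1.44, 1.87, -0.53 and 1.49 from top to bottom, and the dashed line marks the median of all genes tested, -0.02.

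The genes whose pattern was most like each factor were found by Pearson's r of log2(FPKM + 1) over the 12 libraries. These values mostly restate the difference between the populations, and no test was made of them. For ELF3 they were DUSP4 (r = 0.999), a phosphatase of MAP kinases, and MYO18A (r = 0.999), and for KLF5 they were ITGB6 (r = 0.999), an integrin subunit of epithelia, and ZFY (r = 0.999). For SOX9, ABTB2 (r = 0.997) was among them. GATA6 had lower values, with ZNF121 (r = 0.981) and OSBPL2 (r = 0.980) at the top. SH3PXD2B and HOXC13 led for FOXA2, HOXB3 and HYOU1 for PDX1, and RPL35 and ANXA8L2 for FOXA1, each with r of at least 0.995. For deviations from the population means, r of these genes ranged from 0.63 (HOXB3 with PDX1) to 0.987 (DUSP4 with ELF3). Genes with r over 0.99 over the 12 libraries numbered 194 for ELF3, 491 for KLF5, 15 for SOX9 and 0 for GATA6. There were 1118 such genes for FOXA2, 808 for PDX1 and 156 for FOXA1.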

How the data were processed

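RNA from 12 PANC-1 libraries was extracted with a miRNeasy kit and made into stranded mRNA libraries. Processing notes of the submitters name TopHat2 2.1.1, Bowtie2 2.2.8, SAMtools 0.1.18, Cuffdiff 2.2.1 and hg19. The annotation and the strand setting are not given in the sources used here, so overlapping antisense genes may share reads. FPKM per gene symbol and library were deposited by the authors, and no counts were used. An FPKM of 0 was read as listed at 0.

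From these, log2(FPKM + 1) was tested for the 12946 genes that reached 1 FPKM in 2 or more libraries, with limma 3.58.1 (lmFit, eBayes with trend, Benjamini-Hochberg adjustment) in R 4.3.3, as contrasts of 6 group means. In simulated data for the population comparison at 0 Gy (48 h), 95% of 200 genes changed by 1 on the log2 scale were recovered among 12946, with 9 false calls. The simulation used independent normal noise and changed only these 200 genes. In the real comparison 77.7% of genes passed, so the simulated recovery and false calls need not hold there. Python 3.11.15, numpy 2.4.6, pandas 2.3.3, scipy 1.17.1 and matplotlib 3.10.9 were used for the other steps.

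The 8 factors and the gene lists were chosen with earlier results of these data known. Named from each list were up to 4 tested genes with the largest difference past the threshold in all 3 conditions without overlap, from each family the highest gene and those above the factor, and for each factor the 2 most similar genes. Some genes that this rule selects are not reported here. Other named genes were chosen after their values were seen. Promoters came from RefSeq. Alternatives were a pseudocount of 0.1, a filter at FPKM 5 or none, rescaling to TPM, quantile normalization, eBayes without trend, the replicate block, only the compared libraries, each library left out, and, added after the data were seen, rescaling to 1000000 without MIR622.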

Additional observations from a re-analysis of the deposited data

Results flagged for a closer look

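The difference between 48 h and 30 h at 4 Gy of ELF3 differed between the populations by a test of the interaction, with a value of -0.99 on the log2 scale for degron (++) less degron (−) (limma adjusted p = 0.0145). Within the populations this difference was 1.35 in degron (−) (limma adjusted p = 0.000350) and 0.36 in degron (++) (limma adjusted p = 0.148). The call was lost with any 1 of 4 libraries left out, namely degron (++) 4 Gy (30 h) replicate 1 or 2, degron (++) 4 Gy (48 h) replicate 1 and degron (−) 4 Gy (30 h) replicate 1 (adjusted p = 0.0549 to 0.0662).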

How the results depend on the processing

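All 573 alternative values for the population differences of the 7 tested factors kept direction and side of the threshold. Of 870 for dose, time and interactions, 854 kept their side of the threshold, 13 lost and 3 gained a call, and none changed sign with a call. Some values without a call changed sign, such as that of FOXA1 for dose in degron (++). At 4 Gy against 0 Gy in degron (++), 0 factors passed after rescaling to TPM, without MIR622 and in the compared libraries alone, and 0 to 1 with a library left out. In degron (−) this count was 1 with a pseudocount of 0.1 and 0 to 1 with a library left out. At 48 h against 30 h in degron (−) it was 0 in the compared libraries alone, and for the interaction with time 0 to 2 with a library left out. Without a filter, 11 classical transcripts and 3 HNF4A-activated genes passed. With a filter at FPKM 5, 3 endodermal factors, 7 epithelial factors and 0 HNF4A-activated genes passed. These 2 settings change how many genes are tested. The cause of the other changes was not tested.

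Over all genes, the main counts of 236 and 612 for dose in degron (++) and degron (−), 156 and 930 for time, 10 for the interaction with dose and 418 for that with time ranged, over the alternatives that kept all libraries, over 17 to 248, 8 to 710, 12 to 162, 7 to 1001, 2 to 35 and 128 to 475. With a library left out they ranged over 1 to 154, 115 to 496, 15 to 122, 281 to 940, 0 to 18 and 67 to 393. Of the calls averaged over conditions, 48.6% were higher in degron (++), and 34.7% after rescaling to TPM, where the median of all genes was -0.24, and -0.16 without MIR622.

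The check made did not settle whether the replicate numbers pair the libraries. Deviations of same-numbered libraries correlated at -0.038 to 0.122 (median 0.04, 2 of 15 pairs of groups above 0.1). Yet 12 of 12 libraries correlated best with one of their own number, a hint from the data and not the design. The deviations of the 2 libraries of a group are equal and opposite, so these 12 are 6 outcomes, each counted for both libraries. With the replicate number as a block, 0 results on the factors or lists changed, and the counts over all genes went from 236 to 125 and from 156 to 88 in degron (++) and from 10 to 2 for the interaction with dose. Counts behind FPKM are unknown, so values under 1 FPKM, as of HNF4A, cannot be given a counting error.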

Other observations

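The nearest tested genes on either side of the factors, in RefSeq order, were looked at after the data were seen. LINC00261, next to FOXA2, was at 3.796 to 5.03 FPKM in degron (−) and at 0 to 0.0360 FPKM in degron (++), a log2 difference of -2.42. It passed the filter only through degron (−), so the filter itself favoured a difference. THBD, on the other side of FOXA2, was higher in degron (++), by 1.72. CDX2, next to PDX1, also passed the filter only through degron (−). Its log2 difference was -1.47, and that of POLR1D, on the other side of PDX1, was 1.297. The log2 differences of the 6 nearest tested neighbours, 3 on each side, ranged from -0.35 to 0.88 for GATA6, from -0.56 to 0.65 for FOXA1, from -0.21 to 0.86 for KLF5, from 0.01 to 1.34 for SOX9 and from -1.69 to 0.66 for ELF3. These are values only, with no test of neighbours as a group.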
